A study of Homo sapiens with 9 samples.

Results

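The genes described here are NEAT1, MALAT1, H19, GAS5 and TUG1, which are 5 long noncoding RNA genes among 55527 genomic intervals with a value in every library. The deposited intervals carry no gene names. Each gene was therefore given the hg19 interval whose overlap with its known span, divided by the union of both, was highest, and this fraction was between 0.889 (TUG1) and 0.999 (H19). The genes were chosen as a family and not by how they moved, though earlier results of these data were known at that time. The libraries were made from MDA-MB-231, a human breast cancer cell line of the triple-negative type, after lentiviral delivery of a short hairpin RNA and puromycin selection. There were 3 libraries with the scrambled control hairpin shScr, 3 with shCTDP1-#1 and 3 with shCTDP1-#2, the latter both directed against CTDP1, which encodes a phosphatase of the RNA polymerase II tail. All groups therefore carried a lentiviral hairpin and had been selected, and no group was left uninfected. The labels name no separate cultures behind the replicates, so the p-values rest on a spread between libraries that may be technical.

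Values are TPM, a level per transcript length that adds up to 1000000 over each library. TPM keeps no read total, and the sequencing depth is therefore unknown. It is also a relative measure, and in bulk RNA fewer expressing cells and less RNA per cell cannot be told apart. The interval that matched CTDP1 read 13.06, 12.38 and 12.01 TPM in the shScr libraries, 2.46, 2.62 and 2.46 TPM with shCTDP1-#1, and 3.77, 3.42 and 4.1 TPM with shCTDP1-#2. The log2 change was -1.94 (SE 0.10, adjusted p = 6.29e-08 by limma) and -1.50 (SE 0.10, adjusted p = 3.99e-07). Intervals of the line's usual high markers were high in all 9 libraries, VIM at 1421.53 to 3640.79 TPM and CD44 at 706.54 to 1005.99 TPM. Those of estrogen and progesterone receptor, which this line lacks, reached at most 0.13 TPM (ESR1) and 0.27 TPM (PGR), and CDH1 reached 1.08 TPM. The interval of the receptor gene ERBB2, also read as a marker, had 13.23 to 28.88 TPM, so its RNA was not absent. The library shScr replicate 1 stood apart in its mitochondrial share, 4.472% of TPM against 1.119% to 2.283% in the other 8 libraries. Intervals above 0 numbered 19553 to 20063 with shScr and 21562 to 22491 in the knockdown libraries.

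NEAT1 is the architectural RNA of paraspeckles, nuclear bodies assembled by its long isoform together with RNA-binding proteins such as SFPQ and NONO. MALAT1, encoded beside it, accumulates in nuclear speckles, where splicing factors of the SR family are stored. Both transcripts end without a conventional poly(A) tail in their long forms: RNase P cleaves upstream of a tRNA-like structure, and the new 3′ end is held in a triple helix of U-rich motifs and an A-rich tract. GAS5 carries small nucleolar RNAs in its introns and belongs to the 5′ terminal oligopyrimidine genes. The spliced RNA of GAS5 itself is turned over when it is translated. TUG1 is a widely expressed transcript first described in the retina, and H19 is an imprinted transcript expressed from the maternal allele and the host of a microRNA.

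The 3′ elements of NEAT1 and MALAT1 show the feature that sets these transcripts apart from ordinary polyadenylated mRNAs. Both are read from GENCODE v29 transcripts on GRCh38, in DNA letters, 5′ to 3′. The capitals mark the A-rich tract AAAAGCAAAA, taken as the last 10 bases of the long NEAT1 transcript, and its reverse complement, the U-rich motif TTTTGCTTTT.
NEAT1: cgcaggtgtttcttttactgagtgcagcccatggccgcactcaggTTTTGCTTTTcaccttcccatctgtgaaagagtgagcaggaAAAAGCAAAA
MALAT1: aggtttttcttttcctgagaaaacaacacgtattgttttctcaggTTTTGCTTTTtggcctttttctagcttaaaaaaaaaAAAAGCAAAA
The NEAT1 stretch lies at chr11:65445445-65445540 on the plus strand and forms bases 22648 to 22743 of the 22743 bases of its long transcript, the last ones. The MALAT1 stretch lies at chr11:65506026-65506116 on the plus strand, at bases 8265 to 8355 of a transcript of 8708 bases, with 353 annotated bases after it. The motifs are 31 bases apart in NEAT1 and 26 in MALAT1. In the whole annotation, this pair with 10 to 60 bases between its parts occurred in 5 of 206694 transcripts (0.00242%), which belong to C6orf47, CBX8, MALAT1, NDUFA5 and NEAT1. A match of letters is a description, and no reading of these elements was made in the libraries, whose files hold 1 value per gene interval.

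In shScr cells, GAS5 had the highest level of the family, followed by TUG1, NEAT1, MALAT1 and H19. The means were 442 ± 25.9 TPM for GAS5, 56 ± 4.37 TPM for TUG1, 34.2 ± 12.5 TPM for NEAT1, 13.4 ± 4.65 TPM for MALAT1 and 0.527 ± 0.318 TPM for H19 (SD, n = 3). The libraries of neighbouring genes in this order did not overlap in any of the 3 groups. This order is one of RNA captured by the library kit. Capture of forms without a poly(A) tail, as in long NEAT1 and MALAT1, was not measured, so their true abundance may differ. Replicate spread was uneven, as the highest of the shScr libraries was 2 times the lowest for NEAT1 and 1.99 times for MALAT1 but 1.11 times for GAS5 and 1.15 times for TUG1.

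**Figure D1:**
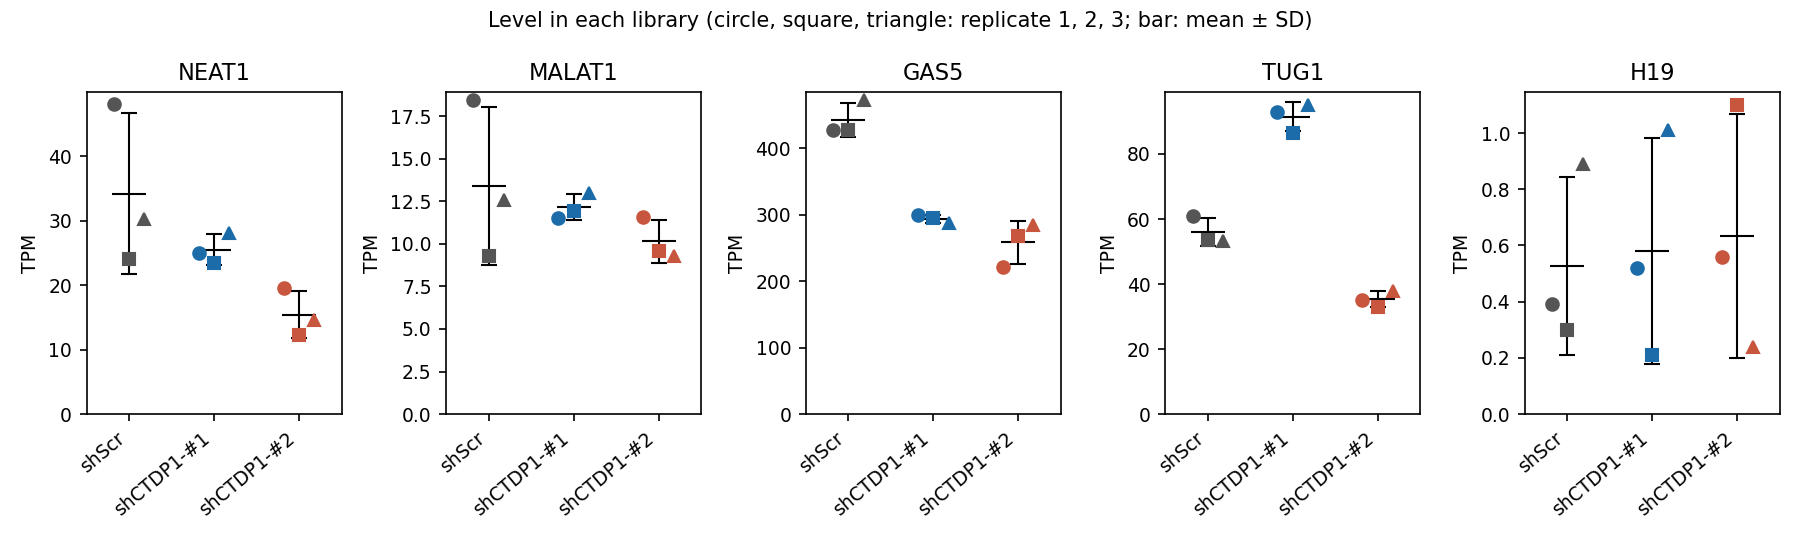
Level in TPM (vertical axis of each panel, starting at 0) of each of the 5 genes in the 3 groups, with a circle, square and triangle for replicates 1, 2 and 3 and a bar for the mean ± SD. GAS5 lay lower with both hairpins, TUG1 lay higher with shCTDP1-#1 and lower with shCTDP1-#2, and the NEAT1 and MALAT1 libraries of shScr were the most scattered.

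NEAT1, at chr11:65190245-65213011 (hg19), fell with shCTDP1-#2. Its level was 48.14, 24.08 and 30.33 TPM in shScr replicates 1, 2 and 3. It was 24.93, 23.41 and 28.14 TPM with shCTDP1-#1, and 19.5, 12.26 and 14.55 TPM with shCTDP1-#2. All shCTDP1-#2 libraries lay below all others, whereas shCTDP1-#1 overlapped shScr through shScr replicate 2 alone. The shScr replicates 1 and 3 lay above every shCTDP1-#1 library. The log2 change with shCTDP1-#2 was -1.06 (SE 0.23, 95% interval -1.58 to -0.55), with an adjusted p of 0.00253 by limma with Benjamini-Hochberg adjustment over all 15011 tested intervals, the method behind every adjusted p given here unless another is named. The change with shCTDP1-#1 was -0.36 (SE 0.23, 95% interval -0.87 to 0.16, adjusted p = 0.205) and did not pass. Between the hairpins, NEAT1 was lower with shCTDP1-#2 by a log2 value of -0.71 (SE 0.23, adjusted p = 0.0274). That last call was lost when any of shCTDP1-#1 replicates 1, 2 or 3 or shCTDP1-#2 replicates 2 or 3 was left out, with adjusted p of 0.0523 to 0.0976. The interval covers the short and the long isoform of NEAT1, so their separate levels are not given by these values.

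MALAT1, at chr11:65265233-65273940, had no change that passed the test. Its level was 18.44, 9.26 and 12.55 TPM with shScr, 11.54, 11.93 and 13.01 TPM with shCTDP1-#1, and 11.58, 9.56 and 9.3 TPM with shCTDP1-#2. All 3 groups overlapped, and the shScr libraries spanned the knockdown libraries of both hairpins. The log2 change was -0.08 with shCTDP1-#1 (95% interval -0.51 to 0.34, adjusted p = 0.721), -0.33 with shCTDP1-#2 (95% interval -0.75 to 0.10, adjusted p = 0.158) and -0.24 between the hairpins (95% interval -0.67 to 0.18, adjusted p = 0.316). The estimate of NEAT1 with shCTDP1-#2, -1.06, lay outside these intervals. Its own 95% interval, -1.58 to -0.55, overlapped that of MALAT1 with shCTDP1-#2, and the difference between the genes was not tested in the fit. NEAT1 and MALAT1 both had their highest value in shScr replicate 1, the library with the highest mitochondrial share, and the part of that library's state in their levels was not tested. Without it, the change of NEAT1 was -0.09 with shCTDP1-#1 and -0.79 with shCTDP1-#2 (adjusted p = 0.693 and 0.00307), and the change of MALAT1 with shCTDP1-#1 turned to 0.16 (adjusted p = 0.351). MALAT1 with shCTDP1-#1 also turned, to 0.15, when libraries were scaled to the upper quartile of their own values above 0. Leaving out shScr replicate 2, the lowest shScr library for both genes, brought NEAT1 with shCTDP1-#1 (-0.57, adjusted p = 0.0448) and MALAT1 with shCTDP1-#2 (-0.55, adjusted p = 0.012) past the threshold.

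The level of NEAT1 relative to MALAT1 in the same library was less scattered than either level among the shScr and the shCTDP1-#1 libraries. With shCTDP1-#2 its highest value was 1.31 times its lowest, a wider span than that of MALAT1 and a narrower one than the 1.59 times of NEAT1. This ratio was chosen after its values were seen. It was 2.61, 2.60 and 2.42 with shScr, 2.16, 1.96 and 2.16 with shCTDP1-#1, and 1.68, 1.28 and 1.56 with shCTDP1-#2. No group overlapped another, and the order was shScr, then shCTDP1-#1, then shCTDP1-#2. The difference in log2 ratio was -0.28 with shCTDP1-#1, -0.76 with shCTDP1-#2 and -0.48 between the hairpins. By an exact permutation test, two-sided, p was 0.1 for each (0.1 after adjustment over the 3 comparisons), the smallest that 20 splits of 3 against 3 libraries allow, so this design cannot reach the usual threshold. With any single library left out, the differences stayed between -0.32 and -0.23, between -0.84 and -0.65, and between -0.56 and -0.37.

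**Figure D2:**
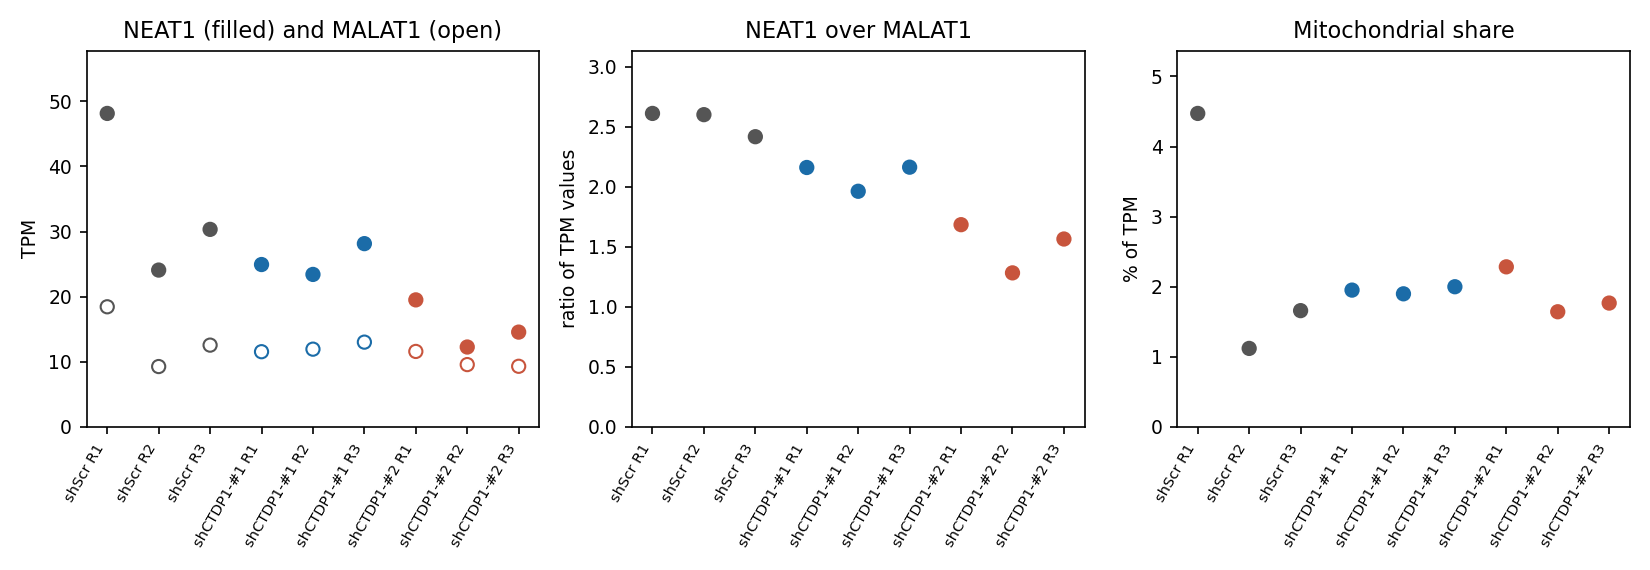
For each of the 9 libraries (horizontal axis; vertical axes start at 0), the level of NEAT1 (filled) and MALAT1 (open) in TPM, the ratio of NEAT1 to MALAT1, and the mitochondrial share in % of TPM, which was highest in shScr replicate 1 (4.472%). The levels varied by 2 times among shScr libraries, while the ratio was 2.42 to 2.61 there, 1.96 to 2.16 with shCTDP1-#1, and 1.28 to 1.68 with shCTDP1-#2.

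There were 2 other intervals in the 11q13 window that holds NEAT1 and MALAT1. The interval at chr11:65222728-65234028, between both genes, read 0.47, 0.99 and 0.72 TPM with shScr, 0.9, 1.87 and 1.17 TPM with shCTDP1-#1, and 2.31, 1.72 and 2.31 TPM with shCTDP1-#2. Every shScr library was under the 1 TPM of the filter, which the interval passed through knockdown libraries alone, so these levels are given as a description with no test. The interval at chr11:65265481-65265876, inside MALAT1, was listed at 0 in all 9 libraries. The library kit does not mark strand, so reads from overlapping genes on opposite strands cannot be told apart.

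GAS5, at chr1:173833038-173838020, fell with both hairpins. Its level was 427.02, 426.91 and 471.85 TPM with shScr, 298.82, 294.41 and 287.3 TPM with shCTDP1-#1, and 221.79, 267.78 and 284.56 TPM with shCTDP1-#2. The 3 groups did not overlap. The log2 change was -0.59 with shCTDP1-#1 (SE 0.08, 95% interval -0.76 to -0.41, adjusted p = 8.65e-05) and -0.78 with shCTDP1-#2 (95% interval -0.96 to -0.60, adjusted p = 1.09e-05). Between the hairpins the difference was -0.19 (95% interval -0.37 to -0.02, adjusted p = 0.066), and it passed after upper-quartile or median-of-ratios scaling of the libraries (-0.31 to -0.26, adjusted p = 0.00937 to 0.0281). The interval at chr1:173837220-173872687, which overlaps GAS5, moved differently: its log2 change was -0.76 with shCTDP1-#1 (adjusted p = 0.00177), 0.35 with shCTDP1-#2 (adjusted p = 0.0809) and 1.11 between the hairpins (adjusted p = 0.00022). Its level of 0.72 to 4.08 TPM was small beside that of GAS5. A further overlapping interval, at chr1:173832386-173833079, reached at most 1.62 TPM and was not tested.

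TUG1, at chr22:31366663-31375381, moved in opposite directions with the hairpins. Its level was 61.01, 53.61 and 53.27 TPM with shScr, 92.92, 86.51 and 95.02 TPM with shCTDP1-#1, and 35.22, 33.02 and 38.0 TPM with shCTDP1-#2. Every shCTDP1-#1 library lay above every shScr library, and every shCTDP1-#2 library lay below. The log2 change was 0.70 (SE 0.07, 95% interval 0.55 to 0.86, adjusted p = 8.88e-06) with shCTDP1-#1 and -0.65 (95% interval -0.80 to -0.49, adjusted p = 1.71e-05) with shCTDP1-#2. The difference between the hairpins was -1.35 (95% interval -1.50 to -1.19, adjusted p = 2.18e-07). All 3 calls and their directions held in every alternative setting and with any library left out. Of the intervals that overlap TUG1, that at chr22:31372501-31374834 was listed at 0 except for 0.99 TPM in shScr replicate 2 and 0.94 TPM in shCTDP1-#1 replicate 2, and that at chr22:31373502-31373844 was listed at 0 throughout.

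Promoter sequences are shown for GAS5 and TUG1, since these genes changed with both hairpins and moved apart in direction with shCTDP1-#1. They are RefSeq sequences on GRCh38.p14 covering 250 bases before and 50 bases after the gene's RefSeq start, read 5′ to 3′ on the gene's strand. That start was not set against the end of the hg19 interval that was measured, and the 2 may differ. The capitals mark CCAAT, or its reverse complement ATTGG, and CACGTG.
GAS5: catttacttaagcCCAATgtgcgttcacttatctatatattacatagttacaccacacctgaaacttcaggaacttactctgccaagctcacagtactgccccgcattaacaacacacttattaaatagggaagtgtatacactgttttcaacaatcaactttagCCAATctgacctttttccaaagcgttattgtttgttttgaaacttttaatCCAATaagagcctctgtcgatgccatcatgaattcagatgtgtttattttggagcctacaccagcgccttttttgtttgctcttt
TUG1: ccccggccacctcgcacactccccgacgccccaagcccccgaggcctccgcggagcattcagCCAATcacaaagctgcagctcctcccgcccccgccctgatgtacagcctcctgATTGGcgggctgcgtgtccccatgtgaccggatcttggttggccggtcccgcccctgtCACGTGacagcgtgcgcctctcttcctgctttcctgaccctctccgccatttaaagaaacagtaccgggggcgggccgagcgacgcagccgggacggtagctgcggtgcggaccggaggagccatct
The GAS5 window is chr1:173868996-173869295 on the minus strand and the TUG1 window is chr22:30969015-30969314 on the plus strand. Motifs were searched on both strands and none overlapped another. GAS5 held 3 CCAAT boxes and no CACGTG, whereas TUG1 held 2 CCAAT boxes and 1 CACGTG, the E-box core. Among all 35116 promoters of the same length, 34.6% held CCAAT and 7.26% held CACGTG. The TATA motif TATAAA, searched likewise and present in 11.5% of the promoters, was in neither window. These matches are letters in a window and say nothing of a factor's binding.

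H19, at chr11:2016406-2022700, was near the lower end of detection. Its level was 0.39, 0.3 and 0.89 TPM with shScr, 0.52, 0.21 and 1.01 TPM with shCTDP1-#1, and 0.56, 1.1 and 0.24 TPM with shCTDP1-#2. All 3 groups overlapped. Only 2 libraries reached 1 TPM, which left H19 out of the fit. An exact permutation test on TPM, two-sided, returned p = 0.8, 0.7 and 0.7 for shCTDP1-#1, shCTDP1-#2 and the difference between them (0.8 each after adjustment over the 3; the smallest possible is 0.1), and a difference at this level was not detectable here.

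Of the 4 genes tested, 1 was called higher and 1 lower with shCTDP1-#1, where 63.1% of all tested intervals were called (35.4% higher and 27.7% lower). With shCTDP1-#2, 3 were called lower and none higher, where 64.0% of all were called (39.5% higher and 24.6% lower). Between the hairpins, 2 were called lower with shCTDP1-#2, where 50.2% of all were called (30.2% higher and 20.0% lower). Over all tested intervals the median log2 change was 0.07, 0.13 and 0.07. The groups did not overlap for 2 of the 4 genes with shCTDP1-#1 (67.8% of all tested intervals), for 3 with shCTDP1-#2 (67.9%) and for 3 between the hairpins (58.0%). With so large a share of intervals called, a call by itself does not set a gene apart, and the sizes and the directions given above carry the description. The comparisons with shScr share its 3 libraries.

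**Figure D3:**
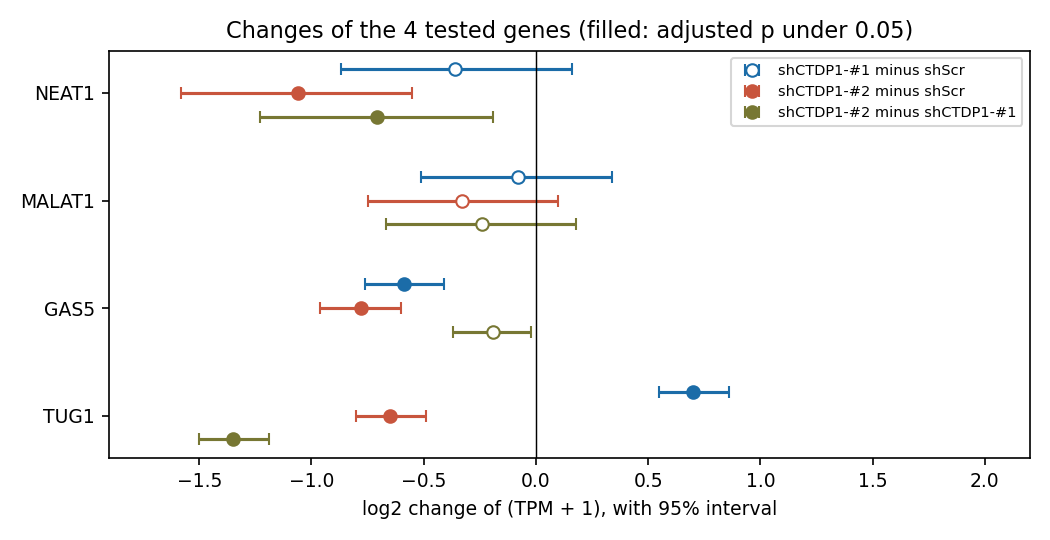
Log2 change of (TPM + 1) with 95% interval (horizontal axis) for the 4 tested genes in the 3 comparisons, with filled points for an adjusted p under 0.05. GAS5 was lower with both hairpins, TUG1 ran from 0.70 with shCTDP1-#1 to -0.65 with shCTDP1-#2, NEAT1 passed with shCTDP1-#2 and MALAT1 in no comparison.

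The companion genes of these RNAs were read from lists of paraspeckle proteins, nuclear speckle proteins, snoRNA host genes, other long noncoding RNAs and genes around H19 and IGF2. Their intervals were named by spans recalled from general knowledge of hg19 and not from an annotation of that build, and used where overlap over union was at least 0.7. TAF15, SRSF1 and CYTOR were left without a match. The lists are described by their counts, with no test of a list, and are to be read beside all tested intervals, of which 35.4% were higher and 27.7% lower with shCTDP1-#1 and 39.5% higher and 24.6% lower with shCTDP1-#2.

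Transcripts of paraspeckle proteins were mostly lower with both hairpins. Of 12 tested, 11 were lower and none higher with shCTDP1-#1, and 10 were lower and none higher with shCTDP1-#2, with median log2 changes of -0.66 and -0.55 against 0.07 and 0.13 over all intervals. With upper-quartile scaling over values above 0, which raised that median to 0.29 and 0.25, 10 were lower and 1 higher with shCTDP1-#1, and 9 were lower and 2 higher with shCTDP1-#2. SFPQ, which binds NEAT1 directly, went from 259 ± 20.2 TPM to 121 ± 7.66 and 146 ± 14.3 TPM (log2 change -1.09 and -0.83, adjusted p = 8.51e-07 and 6.6e-06). Its partner NONO went from 467 ± 16.5 TPM to 314 ± 4.28 and 264 ± 9.8 TPM (-0.57 and -0.82, adjusted p = 4.68e-07 and 4.11e-08). HNRNPA1, a splicing regulator, changed by -1.42 and -1.71 (adjusted p = 7.36e-10 and 3.13e-10), HNRNPH3 by -1.18 and -0.97, and DAZAP1 by -0.96 and -0.90. HNRNPA1 has many processed pseudogenes that can share its reads, so its level is less certain. PSPC1 was lower with both (-0.43 and -0.15, adjusted p = 3.67e-05 and 0.0288), the smaller of which rested on the scaling and on shScr replicates 1 and 3 and shCTDP1-#2 replicates 1 and 3, with -0.01 under upper-quartile scaling over values above 0. RBM14 fell with shCTDP1-#1 (-0.26, adjusted p = 0.00981) and its 0.10 with shCTDP1-#2 did not pass (adjusted p = 0.246). Under that same scaling the values of RBM14 were -0.01 and 0.24.

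Among transcripts of nuclear speckle proteins, 6 of 8 were lower and 1 higher with shCTDP1-#1. With shCTDP1-#2, 4 were lower and 1 higher. The medians were -0.53 and -0.16. Of all intervals, 27.7% and 24.6% were lower. With that scaling the counts were 4 lower and 1 higher, and 3 lower and 2 higher. Transcripts of the SR proteins SRSF2 and SRSF7, which select splice sites, fell with both hairpins. The fall was 0.80 and 0.74 on the log2 scale with shCTDP1-#1 (adjusted p = 2.24e-06 and 2.46e-07). With shCTDP1-#2 it was 0.48 and 0.50 (adjusted p = 9.81e-05 and 4.45e-06). SRSF3, named after its values were seen to complete the 4 lower with shCTDP1-#2, changed by -0.33 there (adjusted p = 9.73e-05). The transcript of SRSF5, another SR protein, rose with both, by 0.60 and 0.54 (adjusted p = 0.000192 and 0.000377). SRRM2, a scaffold of the speckle, was lower by -0.46 and -0.34 (adjusted p = 0.00746 and 0.03), and neither call held under upper-quartile scaling over values above 0 (-0.21 each, adjusted p = 0.185 and 0.187). The call of SRRM2 with shCTDP1-#2 was also lost without shScr replicate 1 (adjusted p = 0.11) and without shCTDP1-#2 replicate 1 or 2 (adjusted p = 0.0693 and 0.103).

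Other host genes of snoRNAs were more often called lower than higher. Of 11 tested, 7 were lower and none higher with shCTDP1-#1, and 6 were lower and 1 higher with shCTDP1-#2, with medians of -0.44 and -0.38, where 27.7% and 24.6% of all intervals were lower. SNHG1 went from 204 ± 22.3 TPM to 65.1 ± 3.4 and 114 ± 4.47 TPM (log2 change -1.63 and -0.83, adjusted p = 2.92e-08 and 3.71e-06). SNHG8 changed by -1.10 and -0.98 and ZFAS1 by -0.50 and -0.82, all with adjusted p of at most 5.93e-05. SNHG7 changed by -0.67 and -0.29 (adjusted p = 8.07e-06 and 0.0028). The 1 host gene higher with shCTDP1-#2 was EPB41L4A-AS1 (0.58, adjusted p = 0.0187), named after its values were seen. With upper-quartile scaling over values above 0, the count for shCTDP1-#1 was 4 lower and 3 higher, and SNHG7 with shCTDP1-#2 did not pass (-0.16, adjusted p = 0.0616).

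The other long noncoding RNAs were called about as often as intervals in general. Of 14 matched, 8 were in the fit, of which MIR17HG passed the filter only through the shScr and shCTDP1-#1 libraries. Of the other 7, 2 were higher and 3 lower with shCTDP1-#1, and 3 were higher and 1 lower with shCTDP1-#2. Of all intervals, 63.1% and 64.0% were called in either direction. NORAD, a cytoplasmic RNA that binds Pumilio proteins, went from 151 ± 8.78 TPM to 168 ± 1.78 and 271 ± 8.7 TPM (0.15 and 0.84, adjusted p = 0.0114 and 1.03e-07). DANCR was lower with both (-0.49 and -0.35, adjusted p = 3.69e-05 and 0.000421). MIR22HG, the host of a microRNA, was higher with both (0.47 and 0.37, adjusted p = 0.00814 and 0.0262). The call of MIR22HG with shCTDP1-#2 was lost under median-of-ratios scaling (0.27, adjusted p = 0.0755), without shScr replicate 2 or 3 (adjusted p = 0.0677 and 0.0957) and without shCTDP1-#2 replicate 1 or 2 (adjusted p = 0.0776 and 0.0512). Named after their values were seen, to complete these counts, CRNDE and OIP5-AS1 were lower with shCTDP1-#1 (-1.06 and -0.21, adjusted p = 7.12e-05 and 0.00906). Likewise MIR210HG was higher with shCTDP1-#2 (1.00, adjusted p = 5.67e-05). MIR17HG, left out of these counts, read 0.59 to 0.97 TPM with shCTDP1-#2, so no test is given for it. HOTAIR, HOTAIRM1 and MIR31HG were listed at 0 in all libraries.

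The listed genes around H19 at 11p15 that were in the fit were higher with both hairpins, whereas H19 itself gave no detectable difference. Genes of the region outside the list were not read. Of 6 in the fit, IGF2 had every shScr library under the 1 TPM of the filter and passed it only through the knockdown libraries. The other 5 were all higher with shCTDP1-#1 and with shCTDP1-#2, with medians of 0.31 and 0.95, where 35.4% and 39.5% of all intervals were higher. IGF2, the growth factor gene reciprocally imprinted with H19, went from 0.703 ± 0.172 TPM to 2.16 ± 0.299 and 3.15 ± 0.862 TPM, given as a description with no test. CDKN1C, a cyclin-dependent kinase inhibitor, went from 3.91 ± 0.452 TPM to 12.3 ± 1.87 and 9.24 ± 0.27 TPM (1.43 and 1.06, adjusted p = 1.97e-06 and 1.78e-05). PHLDA2 rose by 0.66 and 0.95 (adjusted p = 4.96e-06 and 3.63e-07), and SLC22A18 by 0.31 and 1.55 (adjusted p = 0.0295 and 7.79e-07). The smaller change of SLC22A18 was lost without any 1 of the 3 shScr libraries or without shCTDP1-#1 replicate 2 or 3 (adjusted p = 0.0513 to 0.0811). The other tested genes, CTSD and NAP1L4, named to complete the count, lie at the edges of the region and are not known as a part of its imprinted core.

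**Figure D4:**
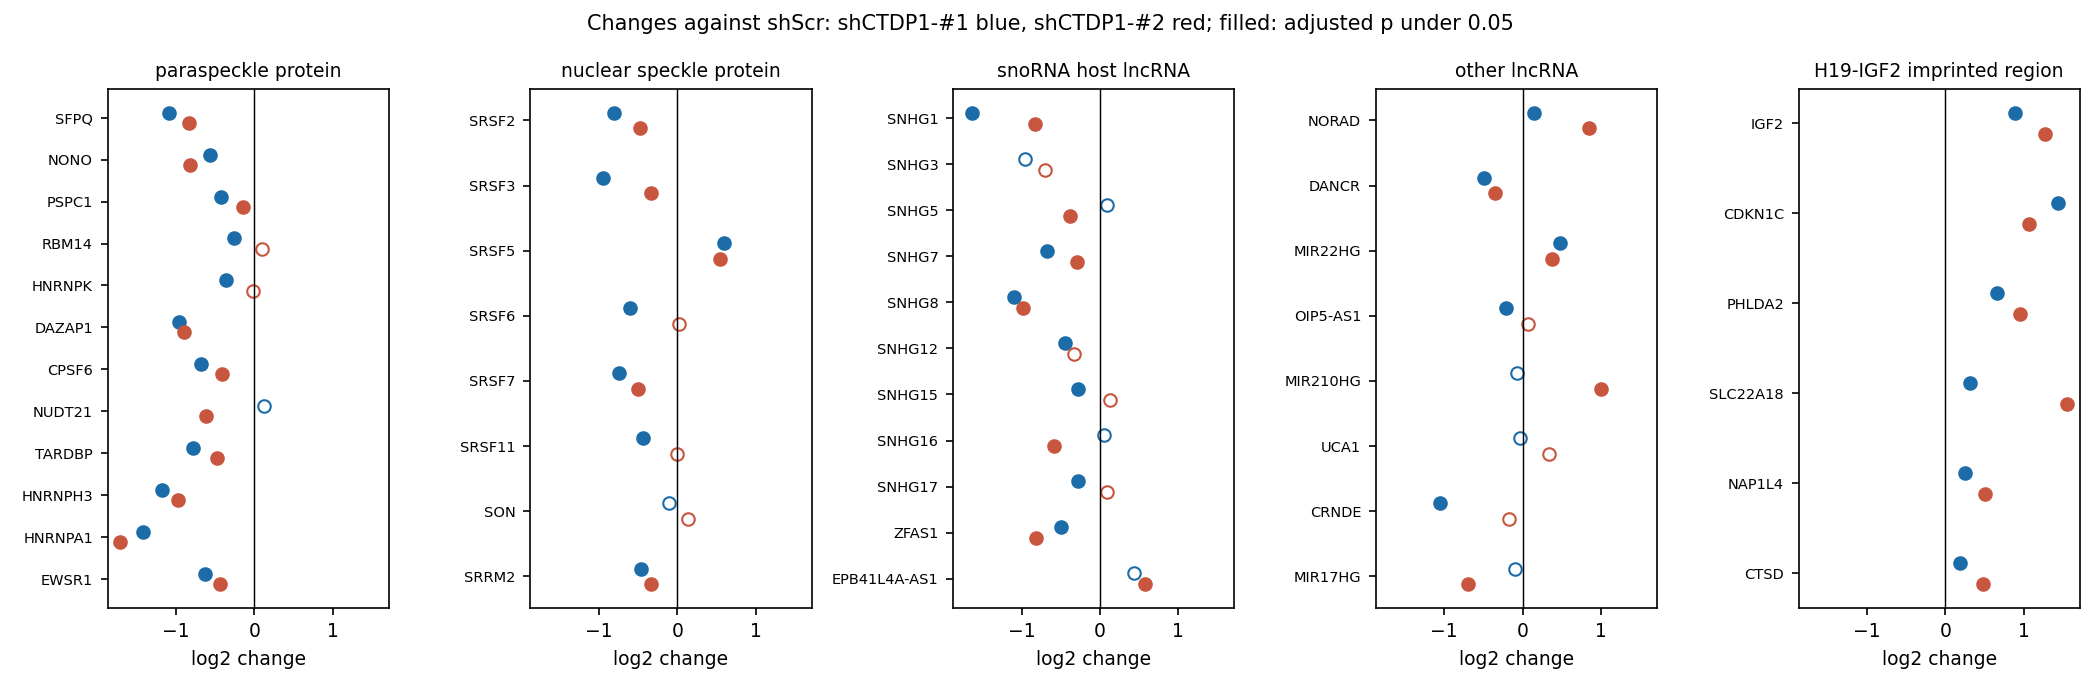
Log2 change against shScr (horizontal axis) of each tested companion gene in 5 panels by list, shCTDP1-#1 in blue and shCTDP1-#2 in red, with filled points for an adjusted p under 0.05. Most transcripts of paraspeckle proteins lie to the left of 0, with medians of -0.66 and -0.55. The 6 genes around H19 lie to the right, of which IGF2 passed the filter only through the knockdown libraries.

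The intervals most similar in profile to each gene were sought among 9791 intervals with a mean of at least 5 TPM, over the 9 libraries. They are given by hg19 position without a p. The search covered most autosomes but not all, and left out X, Y and the mitochondrial chromosome. Intervals on the mitochondrial chromosome therefore could not appear, and closer intervals on the chromosomes left out were not sought. Whether autosomal intervals such as those on chr1 take up reads of mitochondrial RNA was not tested. NEAT1 was closest to chr5:64859063-64883376 (r = 0.960) and chr6:116956781-116989957 (r = 0.953). For MALAT1 they were chr1:566454-567996 (r = 0.933) and chr1:569076-569756 (r = 0.915). For GAS5 they were chr3:37903451-38025960 (r = 0.985) and chr12:56510370-56511727 (r = 0.982), and for TUG1 chr11:45825623-45834566 and chr10:72164135-72188374 (r = 0.995 each). The points of each r share their libraries and fall into 3 groups.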

How the data were processed

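The submitters' processing notes name STAR, RSEM and hg19, with versions not given in the sources used here. Per the labels' protocols, total RNA was the input to a TruSeq RNA v2 kit. How far the kit captured RNA without a poly(A) tail was not measured, which limits the levels of NEAT1 and MALAT1. The authors deposited 1 file per library whose values are taken as TPM, since they sum to 1000000 in each. Each listed 57773 rows, of which 2246 that shared an interval were left out (0.355% to 0.391% of TPM). From the rest, log2(TPM + 1) of the 15011 intervals that reached 1 TPM in 3 or more libraries was fitted with limma 3.58.1 (R 4.3.3, statmod 1.5.0, trend and robust) as 3 group means, with Benjamini-Hochberg adjustment and a threshold of 0.05. The log2 scale understates changes of low intervals. The fit was tested on simulated data. The genes and lists were chosen with earlier results of these data known. Companions named are 6 fixed genes (1 more is not reported here and is left out of the counts of its list), and per list up to 4 with the largest smaller change among those called alike with both hairpins. The spans of CTDP1 and of the line markers were added later, from general knowledge. Alternatives were other pseudocounts, filters, scalings, limma options, a replicate block, nuclear TPM and leaving out each library. Replicate numbers were not treated as pairs, since no label states one.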

Additional observations from a re-analysis of the deposited data

Results flagged for a closer look

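Of the 26 named and tested genes, 17 differed between the hairpins, 11 higher and 6 lower with shCTDP1-#2. The test was that of the difference itself (shCTDP1-#2 minus shCTDP1-#1 in the limma fit, adjusted p under 0.05), by which 50.2% of all tested intervals differed. Many of the 26 were named for their calls against shScr in this same fit. The count is therefore a description and no fair comparison with that share. IGF2, under the filter in every shScr library, is among the 26 and was not called here. Among the noncoding RNAs, the log2 difference was -0.71 for NEAT1, -1.35 for TUG1, 0.68 for NORAD, 0.80 for SNHG1, -0.32 for ZFAS1 and 0.38 for SNHG7. For TUG1 the hairpins moved the gene in opposite directions against shScr. Transcripts of the paraspeckle proteins differed by 0.26 (SFPQ), -0.25 (NONO), 0.28 (PSPC1), 0.36 (RBM14), -0.30 (HNRNPA1) and 0.21 (HNRNPH3). The call of SFPQ was lost under upper-quartile scaling over values above 0 (0.15, adjusted p = 0.18) and without shCTDP1-#1 replicate 1 or 2 or shCTDP1-#2 replicate 1 or 3 (adjusted p = 0.0565 to 0.0667). That of HNRNPH3 was lost under all 3 scalings to a quartile or to ratios (0.10 to 0.15, adjusted p = 0.0726 to 0.261), without the filter (0.0543), without limma's trend and robust options (0.0535) and without shCTDP1-#1 replicate 2 (0.0558). Transcripts of the speckle proteins SRSF7 and SRSF2 differed by 0.24 and 0.32. That of SRSF7 did not pass under upper-quartile scaling over values above 0 (0.13, adjusted p = 0.053). In the region of H19, CDKN1C differed by -0.36, PHLDA2 by 0.29 and SLC22A18 by 1.24. The call of CDKN1C was lost without shCTDP1-#1 replicate 2 (-0.25, adjusted p = 0.0971) and without shCTDP1-#2 replicate 2 or 3 (adjusted p = 0.0551 and 0.0651). That of NEAT1 was lost without the filter and in 5 of 9 fits that left out a library, as given above. CTDP1 itself differed by 0.44 (adjusted p = 0.00362), being lower with shCTDP1-#1. The part of the knockdown's depth in these differences was not tested.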

How the results depend on the processing

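GAS5 against shScr, TUG1 in all 3 comparisons and NEAT1 with shCTDP1-#2 kept direction and call in every alternative. Leaving out each library in turn gave, for shCTDP1-#1, shCTDP1-#2 and their difference, log2 ranges of -0.57 to -0.09, -1.28 to -0.79 and -0.88 to -0.57 for NEAT1; -0.30 to 0.16, -0.55 to -0.09 and -0.33 to -0.19 for MALAT1. They were -0.61 to -0.54, -0.85 to -0.68 and -0.27 to -0.09 for GAS5, called for the difference without shCTDP1-#2 replicate 3 (adjusted p = 0.0171), and 0.67 to 0.76, -0.70 to -0.58 and -1.40 to -1.30 for TUG1. Without a filter, the difference of NEAT1 between the hairpins did not pass (-0.71, adjusted p = 0.0619), and the cause was not tested.

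The planned upper-quartile scaling was first run over each library's own values above 0, whose number differs between libraries. It moved the median of all intervals to 0.29, 0.25 and -0.04, against 0.07, 0.13 and 0.07 as deposited. The share of calls that were higher became 75.4%, 72.6% and 44.6%, against 56.1%, 61.6% and 60.2%, and lower calls with shCTDP1-#1 became 2489 against 4161. MALAT1 with shCTDP1-#1 turned to 0.15, and between the hairpins DAZAP1 turned to -0.05, SRRM2 to -0.00 and GAS5 passed at -0.31. A version over the tested intervals, the same set in each library, was added after those results had been seen. It gave medians of 0.06, 0.07 and 0.01 and GAS5 at -0.26. Median-of-ratios scaling gave -0.26 for GAS5 and -0.00 for DAZAP1 there.

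With the replicate block, no call of NEAT1, MALAT1, GAS5 or TUG1 changed (NEAT1 -0.36, -1.06 and -0.71, adjusted p = 0.0724, 0.000372 and 0.00499), and calls were 5279 higher and 4114 lower, 5881 and 3636, and 4470 and 2955. Residuals of same-numbered libraries correlated at -0.01 to 0.05 and of others at -0.05 to 0.02, ranges that overlap and lie near 0. By mean correlation, 9 of 9 libraries were closest to those of their number. No label states a pairing, and whether replicates were paired was not tested.

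Alternatives were read for the genes named in the text and for list counts. Depth is unknown, so counting error is not separated from other spread.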
